A study of Drosophila melanogaster with 6 samples.

Results

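The genes described are *sv*, *ct*, *lz*, *pros*, *B-H1* and *B-H2*, 6 transcription factor genes of the lens-secreting cone cells, the R7 photoreceptor and the primary pigment cells of the fly eye. They were chosen by gene symbol, and 6 of the 6 symbols were found among the 17433 genes of the raw count table. RNA was measured by sequencing in nuclei of eye discs late in the third larval instar, dissected together with the antennal discs they adjoin. The eye disc is the larval tissue that forms the adult eye. In 3 *GMR > Rh1G69D* samples, *GMR-GAL4* drove *uas-Rh-1G69D*, a misfolding mutant of the visual pigment Rhodopsin-1 that causes ER stress, together with *uas-EGFP::Msp300-KASH*. In 3 WT samples, *GMR-GAL4* drove *uas-EGFP::Msp300-KASH* alone, so the driver and the nuclear envelope tag were common to both genotypes. The GMR promoter carries repeats of the binding site of Glass and is active behind the morphogenetic furrow, and nuclei were pulled down by the EGFP tag, so cells ahead of the furrow should be depleted. Each sample was a pool of discs from about 100 larvae.

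In the developing ommatidium, photoreceptors are recruited before the cone cells, which later secrete the lens, and the primary pigment cells that enclose the cone cells follow in the pupa. Lozenge (Lz), a Runx factor, acts in the undifferentiated cells from which R1, R6, R7 and the cone cells arise, and with Notch and EGF receptor signalling it switches on *sv*, the fly Pax2 gene, in cone cells. Prospero is present in R7 and in cone cells, Cut in cone cells, and the 2 Bar homeodomain proteins in R1 and R6 and later in primary pigment cells. All of these factors also act elsewhere in the fly: *ct* in the antenna and sensory organs, *lz* in crystal cells of the blood, *pros* in neural precursors and glia.

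The libraries held 21773452 to 30884519 counts on genes. *ninaE*, which encodes Rhodopsin-1, had 3840, 3987 and 5115 counts in *GMR > Rh1G69D* libraries, against 63, 1222 and 65 counts in WT libraries. WT replicate 2 thus held more *ninaE* reads than the other WT libraries. WT replicate 3 stood apart in another way. Its summed level of 5 fat body markers was 680 CPM, against 24.1 and 34.1 CPM in the other WT libraries. CPM are counts scaled to library size with TMM normalization. Log2 fold changes of the fate genes are also given as a range over fits with a library left out. Other values use all libraries unless a library is named as left out.

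All 6 genes had enough counts to be tested. With edgeR's quasi-likelihood test and Benjamini-Hochberg adjustment over 11818 genes, *sv*, *lz* and *B-H2* were lower in *GMR > Rh1G69D* nuclei, and none of the 6 was higher. Over all genes tested, 3.72% were called lower at an adjusted p under 0.05 and 1.24% higher. *sv* and *lz* stood at 13.9% and 24.9% of their WT levels, and *B-H2* at 48.5%. *B-H1* had almost the same fold change as *B-H2* but did not pass the threshold, nor did *ct* and *pros*. In 5 of the 6 genes every *GMR > Rh1G69D* library lay below every WT library, which was the case for 14.6% of all genes tested, and only *pros* overlapped. The fold changes of *ct* and *pros* turned above 0 with a gene length correction. The median log2 fold change of the 6 genes was -1.03, beside 0.04 for all genes tested. In RNA from pooled nuclei, fewer cells of a type and less RNA per cell cannot be told apart.

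**Figure D1:**
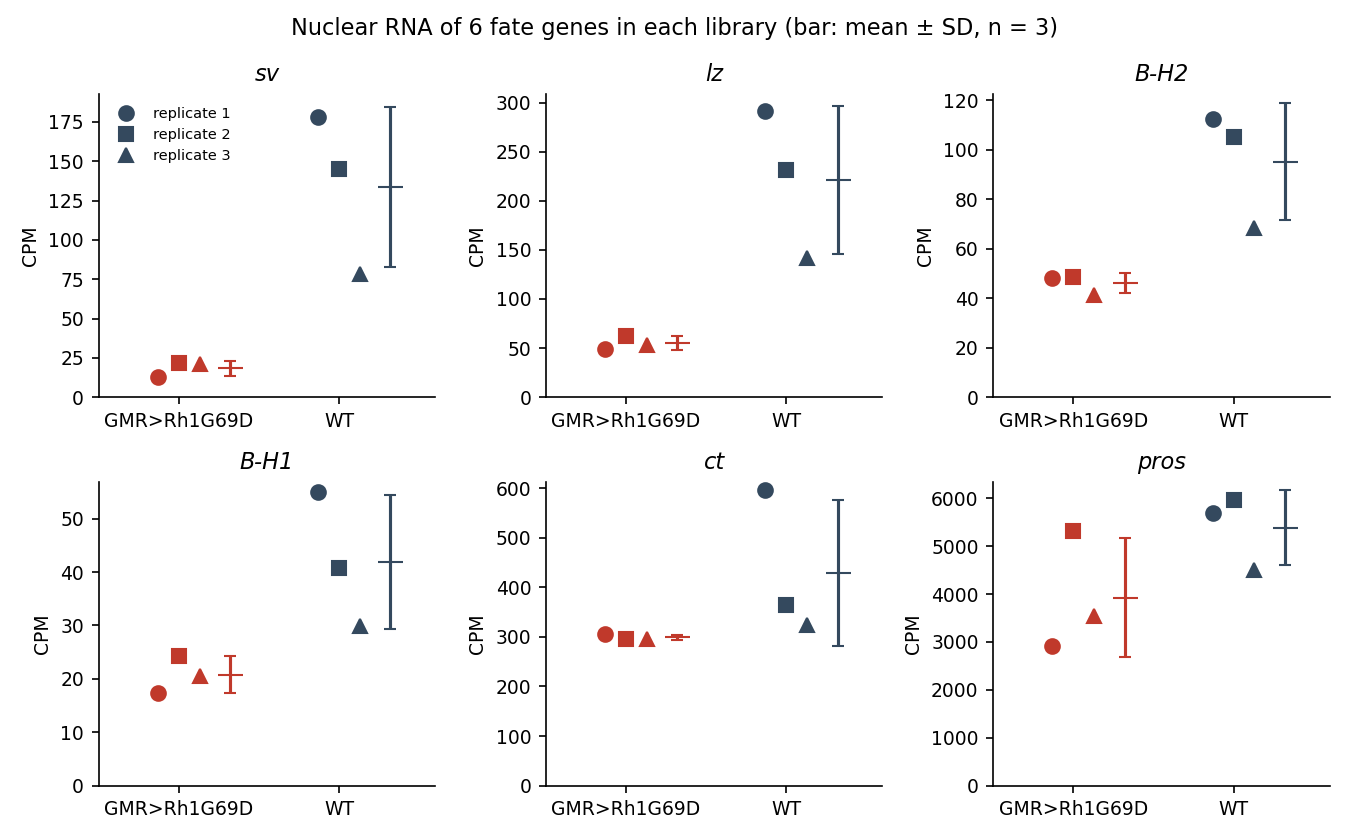
Level of each of the 6 fate genes in every library, in CPM on linear axes that start at 0, where each symbol is 1 library (circle, square and triangle for replicates 1, 2 and 3) and the bar beside each genotype is its mean ± SD (n = 3). In *sv* and *lz* the *GMR > Rh1G69D* libraries lie far below the WT libraries, and in *pros* the genotypes overlap.

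*sv* encodes the Pax2 protein of the fly, which directs cone cell differentiation and later acts in primary pigment cells and bristles. It lies on the plus strand of chromosome 4 of dm6, from 1088798 to 1113317, with 7 annotated transcripts. It had 13.0, 21.7 and 20.9 CPM in *GMR > Rh1G69D* libraries, against 178, 145 and 78.0 CPM in WT libraries. The highest *GMR > Rh1G69D* value was 27.8% of the lowest WT value. On the log2 scale *sv* changed by -2.85 ± 0.32 (standard error), with 95% confidence limits of -3.53 and -2.17, so that WT exceeded *GMR > Rh1G69D* 7.21-fold (adjusted p = 0.000624). *sv* ranked 13 of 11818 by p, and 97 genes, *sv* included, had a log2 fold change as low as this or lower. It passed the threshold in 17 of the 17 alternative settings, with log2 fold changes from -3.12 to -2.41. Exons of *sv* share 444 bases with exons of *Cals*, which encodes the fly calsyntenin and runs on the opposite strand. *Cals* averaged 661 ± 76.3 CPM in *GMR > Rh1G69D* libraries and 988 ± 345 CPM in WT libraries (SD, n = 3 each), a log2 fold change of -0.58 (adjusted p = 0.201). Without WT replicate 3 it was -0.79 and *Cals* passed (adjusted p = 0.0228). Reads from the shared bases can be assigned to either gene only if strand was used in counting, which the sources used here do not state.

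*lz* encodes the Runx protein that makes the late-arising cells of the ommatidium competent for R1, R6, R7 and cone cell fates. It lies on the plus strand of chromosome X, from 9284649 to 9303636, and shares no exon bases with another annotated gene. Its values were 49.4, 62.6 and 53.4 CPM in *GMR > Rh1G69D* libraries, against 291, 231 and 141 CPM in WT libraries. The 3 *GMR > Rh1G69D* libraries were close to each other, and the highest of them was 44.3% of the lowest WT library. The change was -2.01 ± 0.25 in log2 units (standard error), with 95% confidence limits of -2.55 and -1.46 (adjusted p = 0.00132), and WT exceeded *GMR > Rh1G69D* 4.02-fold. *lz* ranked 25 of 11818 by p and passed in 17 of the 17 alternatives, with log2 fold changes between -2.24 and -1.75. Crystal cells are the blood cells in which *lz* also acts, and the 3 prophenoloxidase genes were measured beside it, *PPO1* and *PPO2* of crystal cells and *PPO3*, which is known from lamellocytes. *PPO1* averaged 142 CPM in *GMR > Rh1G69D* libraries and 32.2 CPM in WT libraries, and *PPO2* averaged 83.8 CPM in *GMR > Rh1G69D* libraries and 20.4 CPM in WT libraries. Neither passed in the edgeR test of all 6 libraries (adjusted p = 0.0603 and 0.0625). Both passed in 8 of the 17 alternatives, 7 of which also used all 6 libraries. The highest WT values were those of WT replicate 3, and without it the log2 fold changes were 3.59 for *PPO1* (adjusted p = 0.000335) and 3.46 for *PPO2* (adjusted p = 0.000158), against 2.14 and 2.04 with it. *PPO3* averaged 1.86 CPM in *GMR > Rh1G69D* libraries and 4.95 CPM in WT libraries. The summed level of the 3 genes was 299, 238 and 145 CPM in *GMR > Rh1G69D* libraries, against 21.0, 28.9 and 123 CPM in WT libraries. The part of blood cells in the level of *lz* was not tested.

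*B-H2* and *B-H1* encode the Bar homeodomain proteins, which specify R1 and R6 and then the primary pigment cells, and which can largely replace each other. They are neighbours on the plus strand of chromosome X, *B-H2* from 17314581 to 17324175 and *B-H1* from 17397478 to 17403278, with 73302 bases and 1 annotated gene between them. *B-H2* had 48.2, 48.8 and 41.5 CPM in *GMR > Rh1G69D* libraries, against 112, 105 and 68.2 CPM in WT libraries. It changed by -1.04 ± 0.23 in log2 units (standard error), with limits of -1.54 and -0.55 and an adjusted p of 0.0204. *B-H1* had 17.4, 24.4 and 20.6 CPM in *GMR > Rh1G69D* libraries, against 55.0, 40.8 and 29.9 CPM in WT libraries. Its log2 fold change of -1.01 ± 0.27 (standard error; limits -1.60 and -0.42) missed the threshold (adjusted p = 0.0527). For both genes the genotypes did not overlap, and WT replicate 3 was the lowest WT library. The call of *B-H2* was lost without *GMR > Rh1G69D* replicate 1, 2 or 3 (adjusted p = 0.0853, 0.0564 and 0.121) and without WT replicate 1 or 2 (0.0959 and 0.0855), as well as with limma on FPKM (0.0765 with a pseudocount of 1). Without WT replicate 3 both genes passed, *B-H2* with a log2 fold change of -1.23 (adjusted p = 0.00199) and *B-H1* with -1.20 (adjusted p = 0.00835).

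The Bar genes were also set against each other within each library. The log2 ratio of *B-H2* to *B-H1* counts was 1.16 ± 0.27 in *GMR > Rh1G69D* libraries and 1.19 ± 0.17 in WT libraries (SD, n = 3 each). The difference of -0.04 had a p of 0.80 in a two-sided exact permutation test, in which 0.1 is the smallest p that 3 samples against 3 can give, so the test could not have passed 0.05. With 1 library left out, the difference ranged from -0.19 to 0.049. Because a ratio within a library does not depend on how libraries are scaled, this value does not rest on TMM normalization. *B-H1* and *B-H2* are paralogs, so reads from sequence they share could have been split between them or lost in counting, and this was not tested.

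*ct* encodes Cut, a homeodomain protein of cone cells that is also used in the antenna, in sensory organs and in tracheae. It lies on the plus strand of chromosome X, from 7608428 to 7678859. Its values were 305, 296 and 296 CPM in *GMR > Rh1G69D* libraries, against 597, 364 and 324 CPM in WT libraries. The *GMR > Rh1G69D* libraries differed among themselves by a coefficient of variation of 1.72%, against 34.3% in the WT libraries, most of it from WT replicate 1. The highest *GMR > Rh1G69D* value was 94.0% of the lowest WT value. Its log2 fold change of -0.52 ± 0.23 (standard error; limits -1.02 and -0.01) did not pass (adjusted p = 0.199) and became 0.070 with a gene length correction. Without WT replicate 1 it was -0.20 (adjusted p = 0.611), and without WT replicate 3 it was -0.68 and passed (adjusted p = 0.0409).

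*pros* encodes Prospero, a homeodomain protein of R7 and cone cells. It is found on chromosome 3R, plus strand, from 11328480 to 11407627, and shares 72 exon bases with *lncRNA:CR46008*, which had at most 62 counts in any library. *pros* was by far the most abundant of the 6 RNAs, with 76766 to 197574 counts per library. It had 2919, 5317 and 3550 CPM in *GMR > Rh1G69D* libraries, against 5687, 5974 and 4508 CPM in WT libraries. *GMR > Rh1G69D* replicate 2 lay within the range of the WT libraries. For *pros* the log2 fold change of -0.46 ± 0.32 (standard error) did not pass (adjusted p = 0.405), and it became 0.29 with a gene length correction. Its 95% limits were -1.15 and 0.23, so a fall to 45.1% of the WT level and a rise to 118% both lay within it. *pros* did not pass the threshold in any of the 17 alternatives.

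**Figure D2:**
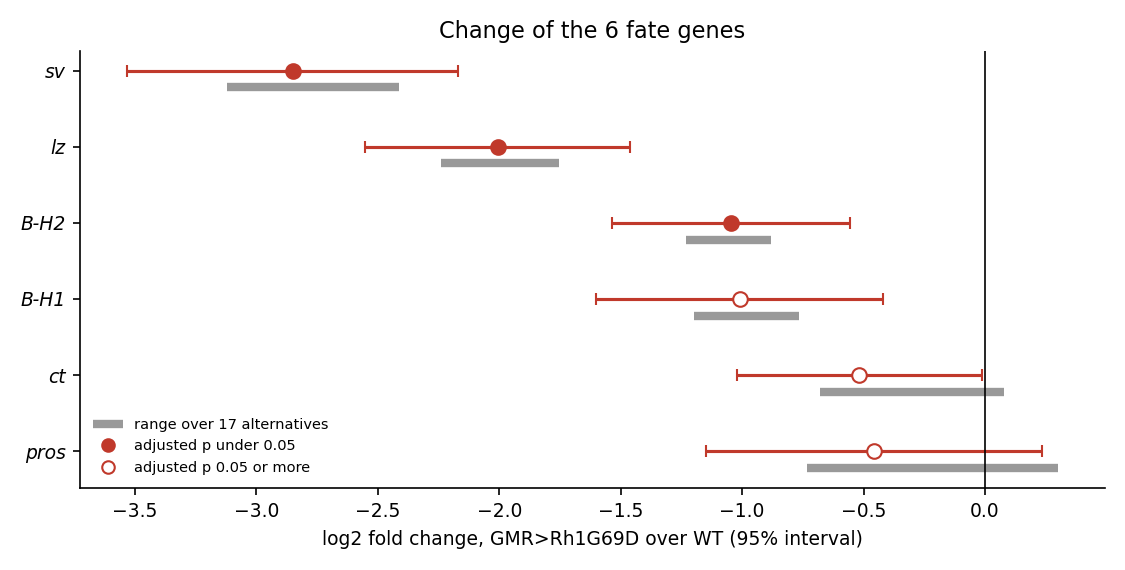
Log2 fold change of each gene (horizontal axis, *GMR > Rh1G69D* over WT), where points with bars are edgeR estimates with 95% confidence intervals, filled where the adjusted p was under 0.05, and the grey bar under each point spans the estimates of 17 alternative settings. The estimates of *sv* and *lz* stay at or below -1.75 in every setting, while the grey bars of *ct* and *pros* cross 0.

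*ct* and *pros* are long genes, and gene length moved with the genotype difference. The length behind the deposited FPKM was 11777 bases for *ct* and 24892 bases for *pros*, longer than 98.6% and 99.9% of the genes tested. For the 267 tested genes of at least 10000 bases the median log2 fold change was -0.58, beside 0.19 for the 2958 genes of up to 1080 bases. With a gene length correction of each library, *ct* stood at 0.070 and *pros* at 0.29 in log2 units, so the direction of both turned, and neither passed (adjusted p = 0.829 and 0.472). The 4 shorter genes were 2724 to 5213 bases long. After the same correction the log2 fold changes were -2.57 for *sv*, -1.93 for *lz*, -1.05 for *B-H1* and -1.02 for *B-H2*, with *B-H1* again not called (adjusted p = 0.0527).

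Ratios between the 6 RNAs within each library do not depend on scaling between libraries. Per 1000 counts of *pros*, *sv* had 4.81 ± 0.95 counts in *GMR > Rh1G69D* libraries and 24.3 ± 6.98 counts in WT libraries (SD, n = 3 each). For *lz* the values were 14.6 ± 2.6 counts in *GMR > Rh1G69D* libraries and 40.4 ± 10.1 counts in WT libraries. *ct* had 81.2 ± 24.5 counts per 1000 of *pros* in *GMR > Rh1G69D* libraries and 79.3 ± 22.9 in WT libraries, with overlapping ranges. The log2 ratio of *sv* to *lz* was -1.60 ± 0.29 in *GMR > Rh1G69D* libraries and -0.75 ± 0.10 in WT libraries, and the genotypes did not overlap. Of the 15 pairs among the 6 genes, the within-library ratios of the genotypes were apart in 12. They overlapped in *ct* to *pros*, *pros* to *B-H2* and *B-H2* to *B-H1*. The pairs share genes and are not independent, and genes of unlike fold change come apart in such ratios. The share of pairs apart among other genes was not measured, so the count is not a trait of these 6. A ratio within a library also keeps the difference by gene length. The p of the 12 pairs was 0.1 each (two-sided exact permutation test, 0.125 after adjustment over 15 pairs), the smallest that this design allows.

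Levels were compared between genes by the deposited FPKM, which are counts scaled to gene length and to the reads of each library. In *GMR > Rh1G69D* libraries the order of the mean FPKM was *pros* (163 ± 53.7), *ct* (26.2 ± 0.77), *lz* (16.4 ± 2.21), *B-H2* (15.2 ± 1.61), *B-H1* (7.88 ± 1.38) and *sv* (3.67 ± 0.94; SD, n = 3 each). Only *lz* and *B-H2* overlapped with each other among neighbours in this order. In WT libraries it was *pros* (211 ± 44.3), *lz* (61.7 ± 20.01), *ct* (34.8 ± 9.48), *B-H2* (29.4 ± 8.0), *sv* (24.8 ± 9.21) and *B-H1* (14.8 ± 3.92). There, *pros* stood clear of *lz*, and each of the other neighbours overlapped with the next. *sv* stood above 30.3% of tested genes by mean FPKM in *GMR > Rh1G69D* libraries and above 78.3% in WT libraries.

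**Figure D3:**
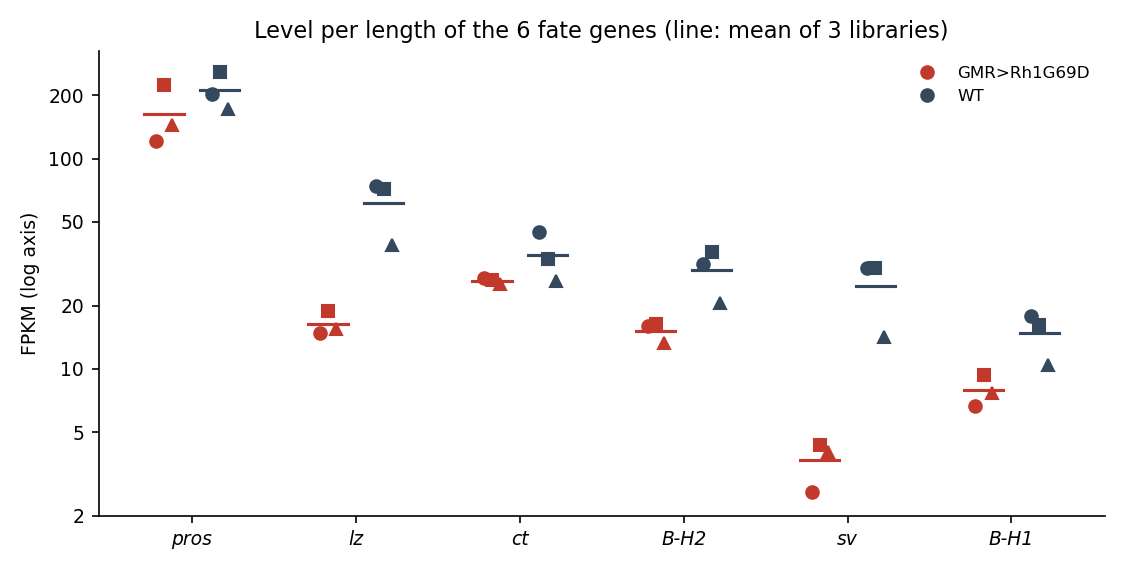
Deposited FPKM of the 6 genes on a log axis, in order of their WT mean, with *GMR > Rh1G69D* on the left and WT on the right within each gene, where symbols are libraries (circle, square and triangle for replicates 1, 2 and 3) and lines are means. *sv* has the lowest mean of the 6 genes in *GMR > Rh1G69D* libraries (3.67) and the fifth in WT libraries (24.8).

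Among the WT libraries, replicate 3 had the lowest value of 6 of the 6 genes, which was the case for 35.0% of all tested genes and for 85.9% of the genes called lower. Its *sv* level was 48.3% of the mean of WT replicates 1 and 2, and its *lz* level was 54.1% of it. *GMR > Rh1G69D* libraries averaged 23.7% of the *sv* level and 39.0% of the *lz* level of WT replicate 3. The summed photoreceptor neuron markers were 2763 to 3685 CPM in *GMR > Rh1G69D* libraries, and 9623, 6210 and 5391 CPM in WT replicates 1, 2 and 3. The part of tissue make-up in the values of WT replicate 3 was not tested.

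**Figure D4:**
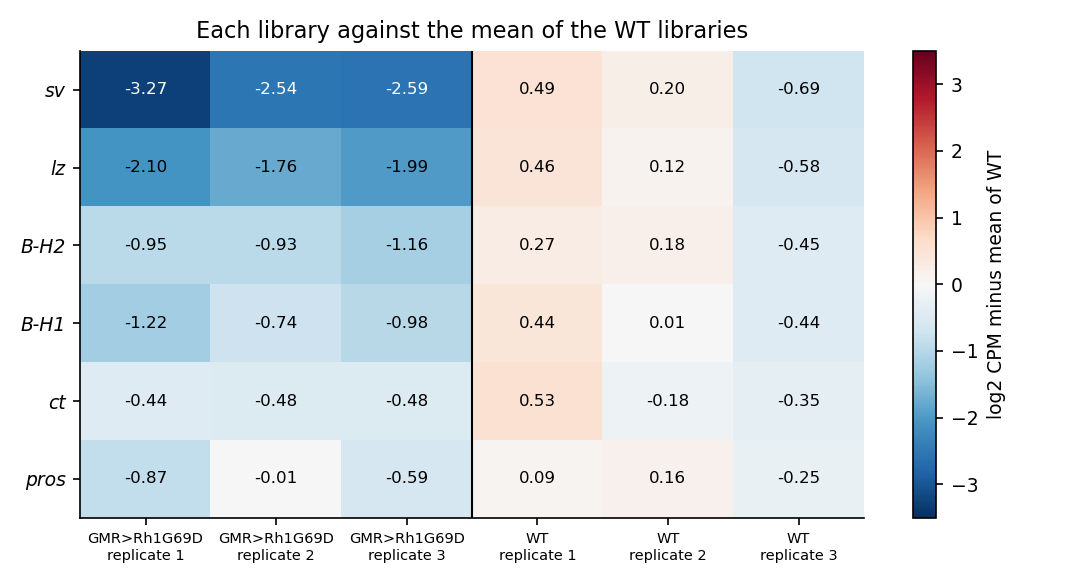
Log2 CPM of each gene (rows) in each library (columns) minus the mean of the WT libraries, in blue below and red above it. The 3 *GMR > Rh1G69D* columns run from -3.27 to -2.54 for *sv*, and WT replicate 3 lies at -0.69 for *sv* and -0.58 for *lz*, below the other WT libraries in every row.

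Genes that lead cells to these fates were compared next, by role. The lists used here and below were drawn up with earlier results of these data known. Their counts thus do not show how widely such genes changed. Of 10 genes of Notch, EGF receptor and Sevenless signalling, 7 were called lower and 0 higher, and the median was -1.06 in log2 units. *ru*, which encodes Roughoid, a rhomboid protease that releases the EGF receptor ligand Spitz, had the largest change of the list, with 48.5 CPM in *GMR > Rh1G69D* libraries and 290.2 CPM in WT libraries (log2 fold change -2.58, adjusted p = 0.000624). *sev*, the receptor that commits R7, had a log2 fold change of -2.27 (adjusted p = 0.000624). *boss*, which encodes its ligand on R8, changed by -2.31 (adjusted p = 0.0372), or -1.23 with limma on FPKM plus 1, at a low level of 1.62 CPM in *GMR > Rh1G69D* libraries and 8.06 CPM in WT libraries. *Dl*, the Notch ligand through which photoreceptors act on cone cells, changed by -1.18 (adjusted p = 0.0284), and *rho* (-1.25), *S* (-0.93) and *aos* (-0.78) were also called lower. The receptors *N* (-0.53) and *Egfr* (-0.52) and the ligand *spi* (-0.62) did not pass. Without *GMR > Rh1G69D* replicate 1, 2 or 3, the number called lower was 3, 3 and 2, and it was 3 without WT replicate 1 or 2 and 10 without WT replicate 3. *ru* and *sev* passed in 17 of the 17 alternatives.

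Of 8 genes of the Ras pathway, from the adaptor *drk* to the kinase *rl*, 0 were called in either direction, and their median log2 fold change was 0.06. *Ras85D* had a log2 fold change of 0.54 (adjusted p = 0.154) and *csw*, a phosphatase of the pathway, -0.66 (adjusted p = 0.0903). Without WT replicate 3, 2 of the 8 were called lower and 1, *Ras85D*, was called higher (log2 fold change 0.72, adjusted p = 0.0306).

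Of 12 genes for nuclear factors that act on or with the 6, 11 were tested and 5 were called lower. The retinal regulators *so* (log2 fold change -1.71, adjusted p = 0.000729) and *eya* (-1.31, adjusted p = 0.00421) act with *lz* upstream of *pros* and *sv*. *gl*, the gene of Glass, had 91.5 CPM in *GMR > Rh1G69D* libraries and 292 CPM in WT libraries (log2 fold change -1.67, adjusted p = 0.00141). Glass is also the factor through which the GMR promoter is activated in both genotypes. *aop*, a repressor that EGF receptor signalling relieves, changed by -1.06 (adjusted p = 0.0209), and *run*, a Runx gene of R7 and R8, by -1.42 (adjusted p = 0.0140). *pnt*, the activator that answers EGF receptor signalling, changed by -0.64 (adjusted p = 0.0852) and *ttk*, a repressor of neuronal fate in cone cells, by -0.82 (adjusted p = 0.0566). *Su(H)*, the transcription factor of the Notch pathway, changed by 0.30 and *Bgb*, which encodes a partner of Runx proteins, by 0.31, and neither passed. The number called lower was 3 without *GMR > Rh1G69D* replicate 1 or 3 or WT replicate 1 or 2, 4 without *GMR > Rh1G69D* replicate 2, and 8 without WT replicate 3. *gl*, *so* and *eya* passed in 17 of the 17 alternatives.

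Genes of adhesion proteins that cone and pigment cells use to take their places were called lower in 4 of 6 cases, with a median log2 fold change of -1.47. *rst*, which encodes Roughest of the interommatidial cells, had 201 CPM in *GMR > Rh1G69D* libraries and 774 CPM in WT libraries (log2 fold change -1.94, adjusted p = 0.00145). *kirre* (-1.68, adjusted p = 0.00264) and *hbs* (-1.58, adjusted p = 0.00139) encode further members of the same immunoglobulin family, and they and *rst* passed in 17 of the 17 alternatives. *sns*, also in this list, had 124 CPM in *GMR > Rh1G69D* libraries and 133 CPM in WT libraries, with overlapping ranges. It did not pass (log2 fold change -0.10, adjusted p = 0.816). *CadN*, the N-cadherin that joins cone cells, changed by -1.36 (adjusted p = 0.0123) and was not called without *GMR > Rh1G69D* replicate 1 or 3 (adjusted p up to 0.0978). With a gene length correction its log2 fold change was -0.72 (adjusted p = 0.0206). Which cells the RNA of *CadN* and the other genes of this list came from was not tested. *shg*, which encodes E-cadherin, changed by -0.54 (adjusted p = 0.149), and without WT replicate 3 it was called lower (-0.69, adjusted p = 0.0192). The number of adhesion genes called lower was 3 without *GMR > Rh1G69D* replicate 1 or 3. It was 4 without *GMR > Rh1G69D* replicate 2 or WT replicate 1 or 2, and 5 without WT replicate 3. Of 4 lens products, which cone cells secrete later, *Crys* had at most 4 counts in any library. *Gasp*, which is also a cuticle and tracheal gene, had 161 CPM in *GMR > Rh1G69D* libraries and 237 CPM in WT libraries and did not pass (adjusted p = 0.135).

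Of 8 genes for fate factors of other retinal cells, 6 were called lower, with *salm* (log2 fold change -1.58, adjusted p = 0.00455), which acts in R3, R4, R7 and R8, and *oc* (-1.38, adjusted p = 0.00794) among them. *ro* of R2 and R5 changed by -1.26 and *svp* of R1, R3, R4 and R6 by -1.05. *ato* and *sens*, which act in R8 at its start in the furrow, did not pass, and their log2 fold changes were 0.83 (adjusted p = 0.149) and -0.26 (adjusted p = 0.583). Without *GMR > Rh1G69D* replicate 1 the number called lower was 1, with *salm* the gene called in 17 of the 17 alternatives. It was 4 and 2 without *GMR > Rh1G69D* replicates 2 and 3, 2 without WT replicate 1 or 2, and 6 without WT replicate 3, where *ato* was called higher. Among 12 other Pax and Runx genes, 11 were tested and 1 was called lower, which was *run*. The median of this list was -0.20. *run* stands in 3 of the lists, and the genes of these lists share the libraries and are not independent.

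**Figure D5:**
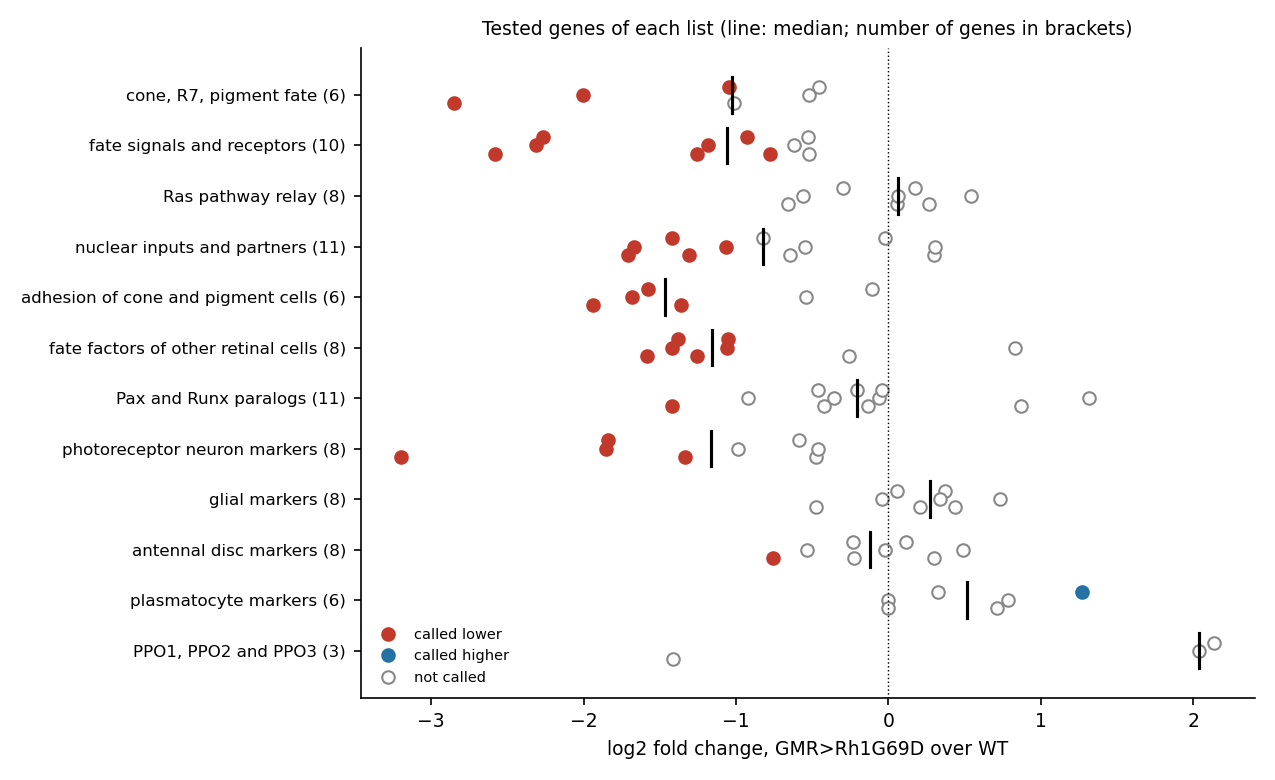
Log2 fold change (*GMR > Rh1G69D* over WT) of tested genes, by list, where filled red points were called lower, filled blue points higher and open points neither. The black line is the median of the list, which is -1.03 for the 6 fate genes, -1.47 for adhesion genes and 0.06 for the Ras pathway. Lists of lens products, anterior eye and peripodial cells, fat body and dosage compensation are not drawn. Genes of the Ras pathway, glia and antenna lie around 0, to the right of most fate genes.

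Markers of other cells that the nuclei could have come from were measured beside these results. Of 8 photoreceptor neuron markers, 4 were called lower, with a median log2 fold change of -1.16. *chp* (-3.20) and *Appl* (-1.84) passed in 17 of the 17 alternatives, while *brp* (-1.85) was not called without *GMR > Rh1G69D* replicate 1 or 3, nor was *futsch* (-1.34), which was also not called with a gene length correction (-0.55). The same correction gave -1.23 for *brp*, which was still called (adjusted p = 0.0109). *elav*, which marks all neurons, had 1108 ± 101 CPM in *GMR > Rh1G69D* libraries and 1665 ± 440 CPM in WT libraries (SD, n = 3 each) and did not pass (log2 fold change -0.59, adjusted p = 0.185). With a gene length correction *elav* stood at -0.043, and without WT replicate 3 it was called lower (-0.78, adjusted p = 0.0184). Of 8 glial markers 0 were called, with a median of 0.27 and sums of 430 to 567 CPM in *GMR > Rh1G69D* libraries and 432 to 510 CPM in WT libraries. Antennal disc markers summed to 612 to 842 CPM in *GMR > Rh1G69D* libraries and 571 to 811 CPM in WT libraries, and 1 of 8, *dan*, was called lower (-0.76, adjusted p = 0.0410). *dan* passed in 8 of the 17 alternatives, and not with a gene length correction, with limma on FPKM or without any 1 library other than WT replicate 3 (adjusted p up to 0.165). Antennal nuclei should lack the tag, yet *Dll*, a defining gene of the antenna, averaged 135 CPM in *GMR > Rh1G69D* libraries and 125 CPM in WT libraries. Plasmatocyte markers summed to 331 to 359 CPM in *GMR > Rh1G69D* libraries and 191 to 236 CPM in WT libraries. Of these, *Hml* was called higher (log2 fold change 1.27, adjusted p = 0.00263). Of 4 markers of the anterior eye field and peripodial cells 0 were called, with sums of 1509 to 1834 CPM in *GMR > Rh1G69D* libraries and 1741 to 3848 CPM in WT libraries. Of the 5 fat body markers 0 were called, with a median log2 fold change of -2.36. Their sums were 8.98 to 56.7 CPM in *GMR > Rh1G69D* libraries and 24.1 to 680 CPM in WT libraries. Without WT replicate 3, 7 photoreceptor neuron, 1 glial, 2 antennal and 1 anterior eye or peripodial marker were called lower, and 3 plasmatocyte markers and 1 fat body marker were called higher. The part of the RNA of *ct*, *pros* and the other fate genes that came from antennal cells and glia was not tested. Nor was the part of these cells in the differences.

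Genes with a profile like that of each factor over the 6 libraries were looked up among the 7368 tested genes whose log2 CPM averaged 3 or more, by the root mean square difference of centred log2 CPM. This is a description over 6 libraries. The profiles include the genotype difference, so genes close to a member have a similar fold change by the way they were chosen. The closest to *lz* were *CR45256* (0.04), *rst* (0.05) and *CG31883* (0.12). The closest to *sv* were *retn* (0.29), *glob2* (0.30) and *ru* (0.34). *B-H2* was closest to *GEFmeso* (0.05), *CG42324* (0.06) and *klar* (0.06), *B-H1* to *CR32218* (0.05), *CG12605* (0.06) and *msi* (0.07). *ct* was closest to *Cadps* (0.07), *H* (0.07) and *l(1)G0469* (0.08), and *pros* to *dpr6*, *Nep3* and *Gfrl* (0.09 each). The genes nearest to *sv* were farther from it than those of the other 5, and among the 6 themselves *B-H1* and *B-H2* were the closest pair (0.18) and *sv* and *ct* the most distant (1.21).

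By chromosome, 4 of the 6 genes lie on X. Of the 1893 tested genes of X, 4.17% were called lower, with a median of -0.00 in log2 units. *sv* lies on chromosome 4, where 6 of 101 tested genes were called lower (5.94%) and the median was -0.27. *roX1*, an RNA of X chromosome dosage compensation in males, had 2625 CPM in *GMR > Rh1G69D* libraries and 4232 CPM in WT libraries (adjusted p = 0.175). Without WT replicate 3 its log2 fold change was -0.89 and it was called lower (adjusted p = 0.0149). *roX2*, also of dosage compensation, had 341 CPM in *GMR > Rh1G69D* libraries and 284 CPM in WT libraries. Its log2 fold change of 0.26 went the other way and did not pass (adjusted p = 0.640). The share of male larvae in each pool is not given in the sources used here.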

How the data were processed

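RNA of 3 *GMR > Rh1G69D* and 3 WT samples was analysed. Paired-end reads from libraries depleted of ribosomal RNA were mapped by the authors to dm6 with STAR 2.6.1d, and reads per annotated gene were counted with featureCounts of Subread 1.6.3. The authors deposited these counts raw. They also deposited a signal, the counts over 1 size factor per sample, and FPKM, counts scaled to gene length and to the reads of each library. The annotation release and strand setting are not given in the sources used here. Each column was assigned by genotype and number in its name.

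Raw counts were tested in R 4.3.3 with edgeR 4.0.16 (filterByExpr, TMM, quasi-likelihood F test), with p-values adjusted over all genes tested and called under 0.05. Standard errors are the log2 fold change over the square root of F. Intervals rest on a variance that edgeR moderates over all genes, with 12.7 degrees of freedom. They are thus not the spread of 1 gene alone between 3 pools per genotype. The edgeR fit was also run on simulated counts with a common dispersion for all genes. The simulation held no length trend and no deviating library, so it cannot show how the test behaves under these. Other settings tried were RLE normalization, DESeq2 1.42.0, no filter, at least 10 counts in every library, a replicate block, a gene length correction (lowess, span 0.5), both together, limma 3.58.1 on log2 normalized counts (pseudocount 1) and log2 FPKM (pseudocounts 1 and 0.1), robust dispersion, and each library left out. The log2 scale with a pseudocount understates changes of low genes. Coordinates are of dm6, from Ensembl's annotation of BDGP6, whose exon lengths equal the lengths behind the FPKM for 5 of the 6 genes.

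The 6 genes and the gene lists were chosen with earlier results of these data known. Named genes are the 6, genes of the lists (called ones first, then those with the highest CPM, and others for their role) and, for each of the 6, the 3 genes with the closest profile. Same-numbered libraries did not deviate together in all pairs (correlations of -0.00, 0.07 and 0.16), so the numbers were not taken as pairs. Plots were made in Python 3.11.15 (matplotlib 3.10.9). Within-library count ratios were compared by exact permutation tests.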

Additional observations from a re-analysis of the deposited data

How the results depend on the processing

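*sv* and *lz* kept their direction and their call in 17 of 17 alternatives, and *B-H1* and *B-H2* kept their direction. *B-H1* passed in 6 of them, with DESeq2 (log2 fold change -1.04), at least 10 counts in every library (-1.03), no filter (-0.99), limma on the normalized counts (-1.004), robust dispersion (-1.01) and without WT replicate 3 (-1.20). *B-H2* failed with limma on FPKM (-0.92 with a pseudocount of 0.1 and -0.88 with 1) and without any 1 library except WT replicate 3. With 1 library left out, the log2 fold change ranged from -3.12 to -2.59 for *sv*, -2.24 to -1.75 for *lz*, -1.20 to -0.76 for *B-H1*, -1.23 to -0.91 for *B-H2*, -0.68 to -0.20 for *ct* and -0.73 to -0.26 for *pros*, and 2 to 5 of the 6 were called lower. The gene length correction reversed *ct* (0.070) and *pros* (0.29), and with the replicate block it gave 0.077 and 0.30. The difference in the log2 ratio of *B-H2* to *B-H1* ranged from -0.19 to 0.049 with 1 library left out, and its sign turned without *GMR > Rh1G69D* replicate 2 (0.043) or 3 (0.039) and WT replicate 2 (0.049). Over all genes, DESeq2 called 507 higher and 957 lower, the replicate block 253 higher and limma on normalized counts 238 higher, and limma on FPKM called 233 lower with a pseudocount of 1 and 210 with 0.1. With 1 library left out, 54 to 1305 genes were called higher and 127 to 1199 lower, the highest of both without WT replicate 3. The replicate block without other changes gave *sv* -2.80, *lz* -1.95 and *B-H2* -1.02 and changed no call of the 6 genes. Of the same-numbered libraries, only those of numbers 2 and 3 deviated most like each other. The cause of these shifts was not tested. With 3 pools per genotype, *ct* and *pros* had 95% limits of -1.02 to -0.01 and -1.15 to 0.23.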
